A study of Caenorhabditis elegans with 12 samples.

Results

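The regions described here are the short intervals of the deposited count table that lie in the piRNA clusters of Caenorhabditis elegans chromosome IV. An interval is an entry named by chromosome, start, end and strand in place of a gene identifier. Members were all chromosome IV intervals spanning under 1000 bp that start from 4.5 to 7.0 Mb (the left window) or from 13.5 to 17.2 Mb (the right window), in build ce11. The rule uses coordinates and no measured value. It gave 2254 members of 55259 intervals, 795 in the left window and 1459 in the right one, and the other 6103 chromosome IV intervals under 1000 bp served as background.

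The series measured small RNA by RIP-seq, in which RNA bound to a protein is recovered with an antibody and sequenced, in whole worms staged at the L4 larval stage. Animals of both strains grew at 15 °C on peptone rich plates with NA22 bacteria, and 4 groups of 3 libraries, lettered A, B and C, were made. CSR-1 input and CSR-1 IP (immunoprecipitation with an antibody against FLAG) came from worms of genotype 1xFLAG::CSR-1. The WAGO-1 P3G groups, again an input and a FLAG IP, came from a strain that carries WAGO-3 P2G A3E beside WAGO-1::FLAG P3G. Every library was treated with an RNA 5' polyphosphatase. Only the inputs went through a small RNA enrichment kit, which took 500 ng of total RNA. Bait, tag position and genotype differed together between the strains, and neither an IP of unmodified WAGO-1 nor an untagged control was analysed here. The labels do not say whether the replicates were separate cultures, and p-values therefore reflect only how far these libraries spread.

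piRNAs are short RNAs of the germline that guide the Piwi protein PRG-1 to foreign and self transcripts. In C. elegans most piRNA genes are short units with their own promoters, packed into a pair of broad clusters on chromosome IV, and each gives a mature piRNA that begins with uridine. PRG-1 recruits RNA-dependent RNA polymerases, which make secondary small RNAs antisense to the target. WAGO-class Argonautes such as WAGO-1 and WAGO-3 bind secondary small RNAs and maintain silencing. CSR-1 binds secondary small RNAs antisense to germline-expressed genes and is known to protect them. Neither tagged protein is the piRNA carrier PRG-1.

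Library depth set what could be seen. Counted reads, those on identifiers and intervals, numbered 334088 to 533232 in the inputs, 2405005 to 4908321 in the CSR-1 IPs and 7403373 to 9187525 in the WAGO-1 P3G IPs. A single read was therefore worth 1.88 to 2.99 CPM (counts scaled to a total of 1000000 counted reads) in an input and 0.109 to 0.416 CPM in an IP. Reads on no feature made up 53.8 to 59.3% of all reads in the CSR-1 inputs, 19.9 to 27.5% in the CSR-1 IPs, 72.8 to 74.1% in the WAGO-1 P3G inputs and 31.7 to 32.3% in the WAGO-1 P3G IPs. Their part in the results below was not tested. CSR-1 IP library A stood apart from B and C: a chi-square of its counts per degree of freedom was 8.02 and 6.89 against them, and 1.52 between B and C. Identifiers could not be matched to gene symbols, so tissue markers and the tagged genes themselves were not checked.

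Most members held few reads. Of the 2254, 966 had 0 counts in all 12 libraries, 883 had 1 to 9 counts over all libraries together, and 77 had 100 or more. Their spans ran from 11 to 999 bp with a median of 135 bp, 1120 lay on the plus strand and 1134 on the minus strand, and 544 overlapped another member. The CSR-1 inputs gave 2785 reads on 386 members, the CSR-1 IPs 7127 on 588, the WAGO-1 P3G inputs 1714 on 355 and the WAGO-1 P3G IPs 34117 on 1158. The 10 most abundant members of a group took between 28.0% (CSR-1 IP) and 45.6% (WAGO-1 P3G IP) of its reads on members.

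The RefSeq annotation of the same build (WBcel235) lists 15363 piRNA genes of median length 21 bases, and 14204 of them (92.5%) start in the windows. Members overlapped 211 of those genes, or 1.49%, so the intervals bear on a small share of the annotated piRNAs. At least 1 piRNA gene was overlapped by 162 members (7.19%) and by 14 of the 6103 background intervals (0.229%). Of the remaining members 932 overlapped a protein-coding gene, 75 a pseudogene, 7 a structural or short RNA gene such as a tRNA gene, 21 another noncoding gene and 1057 (46.9%) no RefSeq gene. The annotation table used here gives no strand for these genes. An overlap says only that coordinates are shared.

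Where members met a piRNA gene, they mostly covered a piece of it. A piRNA gene lay whole inside 48 of the 162 members, and 114 covered one in part only. The 48 held few reads: summed over them, CSR-1 inputs gave 32.8 ± 5.8 CPM (SD, n = 3), CSR-1 IPs 18.3 ± 1.5, WAGO-1 P3G inputs 42.9 ± 7.3 and WAGO-1 P3G IPs 13.0 ± 1.6 CPM. The 114 gave 804 ± 77 CPM in the CSR-1 inputs, 218 ± 24 in the CSR-1 IPs, 732 ± 76 in the WAGO-1 P3G inputs and 95.8 ± 6.8 in the WAGO-1 P3G IPs. In both sets the IP libraries lay below the inputs of their strain without overlap. Reads on members that hold a whole piRNA gene were thus a small part of those on all piRNA-overlapping members.

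The share of counted reads on members separated by piRNA overlap. For the 162 members overlapping a piRNA gene it was 0.0766%, 0.0821% and 0.0922% in CSR-1 input A, B and C, and 0.0208%, 0.0252% and 0.0250% in the CSR-1 IPs. It was 0.0732%, 0.0736% and 0.0856% in the WAGO-1 P3G inputs and 0.0108%, 0.0118% and 0.0101% in the WAGO-1 P3G IPs. These members were thus lower in the IPs of both strains, with a ratio of mean IP to mean input share of 0.284 for CSR-1 and 0.141 for WAGO-1 P3G. The 2092 members with no piRNA gene had shares of 0.121%, 0.130% and 0.137% in the CSR-1 inputs and 0.0401%, 0.0469% and 0.0451% in the CSR-1 IPs. Their shares were 0.0894%, 0.0892% and 0.0882% in the WAGO-1 P3G inputs and 0.126%, 0.128% and 0.125% in the WAGO-1 P3G IPs. The ratio was thus 0.340 for CSR-1 and 1.42 for WAGO-1 P3G, beside 0.243 and 1.14 for the background intervals. As a share of all reads, those on no feature included, the WAGO-1 P3G ratios became 0.359 for piRNA-overlapping members and 3.62 for the others. The background intervals then had a WAGO-1 P3G ratio of 2.89. With CSR-1 the ratios became 0.50 for piRNA-overlapping members, 0.60 for the others and 0.42 for the background intervals. Intervals overlapping a piRNA gene made up 45.0 to 49.3% of all member reads in the WAGO-1 P3G inputs and 7.45 to 8.44% in the WAGO-1 P3G IPs, against 38.7 to 40.2% and 34.2 to 35.7% in the CSR-1 inputs and IPs.

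**Figure D1:**
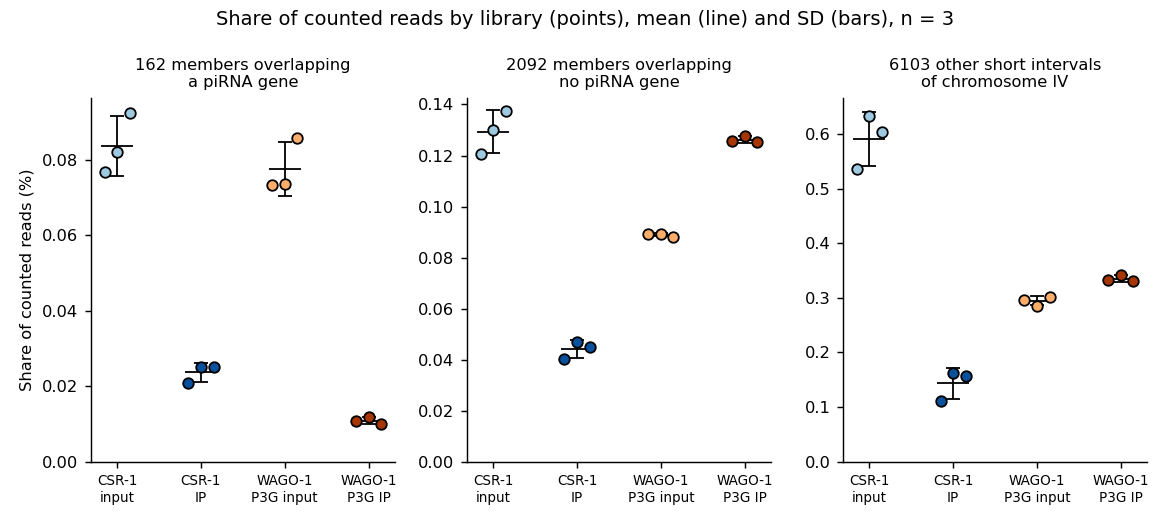
Percent of counted reads on piRNA-overlapping members (left), other members (middle) and background intervals (right), with 1 point per library, a line at the mean and bars for the SD of 3 libraries; the y axes differ and start at 0. WAGO-1 P3G IP libraries (0.0101 to 0.0118%) lay below their inputs (0.0732 to 0.0856%) on the left and above them in the other panels, and CSR-1 IPs lay below their inputs in all 3 panels.

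A filter on low counts (filterByExpr of edgeR, which asked for 6.807 CPM in enough libraries) left 65 members for testing, 2.88% of the 2254, beside 100 background intervals (1.64%). They were 27 of the 162 piRNA-overlapping members (16.7%) and 38 of the other 2092 (1.82%), with 13 in the left window and 52 in the right one. No background interval that overlaps a piRNA gene was tested. Of the 27, 13 reached that CPM in every library of 1 or both input groups and of no IP group, 6 did so in at least 1 IP group and 8 in no group. Of the other 38, 10 did so in inputs only, 24 in at least 1 IP group and 4 in no group. Counts over the tested members are therefore a description of these 65: a member that passed through the group where it is high had to differ. The 135 untested piRNA-overlapping members, chosen by the same filter as those below it, had summed shares of 0.0082 ± 0.0021% in the CSR-1 inputs, 0.00346 ± 0.00008% in the CSR-1 IPs, 0.0115 ± 0.0012% in the WAGO-1 P3G inputs and 0.00445 ± 0.00063% in the WAGO-1 P3G IPs (SD, n = 3).

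The 10 members with the most reads had means of 26.2 to 92.8 CPM over the 12 libraries, and 3 of them overlapped a piRNA gene. This order is by reads and not per length: per 100 bases of interval they ran from 3.16 to 183 CPM. The most abundant, at chrIV:16254069-16254628 (plus strand, 560 bp), shares 13 bases with the piRNA gene 21ur-8977 at its lower end. It had 235, 298 and 311 CPM in the CSR-1 inputs and 35.9, 48.6 and 57.1 in the CSR-1 IPs. With WAGO-1 P3G it was 11.8, 41.9 and 14.1 CPM in the inputs and 20.4, 21.5 and 18.3 in the IPs. The CSR-1 inputs stood far above the other 3 groups, and the 2 WAGO-1 P3G groups overlapped. The highest mean per 100 bases belonged to the 25 bp interval at chrIV:16901589-16901613 (minus strand), which shares 14 bases with 21ur-1216 and lies in the noncoding gene Y116A8C.1. It had 91.4, 91.9 and 75.1 CPM in the CSR-1 inputs and 33.2, 29.5 and 23.0 in the CSR-1 IPs. With WAGO-1 P3G it was 79.4, 32.9 and 81.7 CPM in the inputs and 3.60, 4.59 and 2.40 in the IPs. Both IPs lay below their inputs without overlap.

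The third piRNA-overlapping member among the 10, at chrIV:17033431-17033736 (plus strand, 306 bp), shares 11 bases with 21ur-2464. Its CPM was 32.1, 67.5 and 48.3 in the CSR-1 inputs and 21, 33.3 and 24.8 in the CSR-1 IPs. With WAGO-1 P3G it was 64.7, 95.8 and 95.8 CPM in the inputs and 5.04, 5.81 and 7.08 in the IPs. The CSR-1 groups overlapped, while the WAGO-1 P3G IPs lay far below their inputs. The second most abundant member, at chrIV:4726885-4726994 (minus strand, 110 bp), lies in the pseudogene K08F11.6. It had 46.9, 46.9 and 48.3 CPM in the CSR-1 inputs and 7.74, 10.8 and 9.33 in the CSR-1 IPs. With WAGO-1 P3G it was 97.1, 108 and 115 CPM in the inputs and 186, 172 and 190.5 in the IPs. None of these groups overlapped, and the CSR-1 IPs were lowest, then came the CSR-1 inputs and the WAGO-1 P3G inputs, with the WAGO-1 P3G IPs highest.

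An interval in no RefSeq gene, at chrIV:17031209-17031322 (minus strand, 114 bp), had 9.88, 16.9 and 13.4 CPM in the CSR-1 inputs and 1.22, 4.99 and 1.17 in the CSR-1 IPs. It had 35.3, 32.9 and 36.6 CPM in the WAGO-1 P3G inputs and 124, 158 and 129 in the WAGO-1 P3G IPs, the same order of groups as at K08F11.6. Its nearest piRNA gene is 114 bases away. The interval in sra-30, a gene of a chemoreceptor family, at chrIV:15193551-15193798 (plus strand), had 39.5, 26.3 and 34.8 CPM in the CSR-1 inputs and 6.11, 6.65 and 10.2 in the CSR-1 IPs. It had 41.2, 38.9 and 22.5 CPM in the WAGO-1 P3G inputs and 45.1, 45.7 and 44.0 in the WAGO-1 P3G IPs. Here the inputs of the strains overlapped and the IPs went apart. The 4 other members of the 10 were 3 intervals in no gene, at chrIV:15154647-15154952, chrIV:13802472-13803429 and chrIV:6086019-6086136, and 1 in the coding gene Y45F10C.1 at chrIV:13658086-13658444. In the first 3 the CSR-1 IPs lay below the CSR-1 inputs and the WAGO-1 P3G IPs above the WAGO-1 P3G inputs, without overlap. That at chrIV:15154647-15154952 had 51.9, 45.0 and 59.0 CPM in the CSR-1 inputs and 10.2, 13.3 and 10.8 in the CSR-1 IPs. With WAGO-1 P3G it was 41.2, 47.9 and 36.6 CPM in the inputs and 67.8, 70.9 and 70.6 in the IPs. That at chrIV:6086019-6086136 had 46.9, 30.0 and 32.2 CPM, then 5.30, 6.65 and 8.46, then 20.6, 23.9 and 19.7, and last 56.2, 50.0 and 42.3, in the same order of groups.

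**Figure D2:**
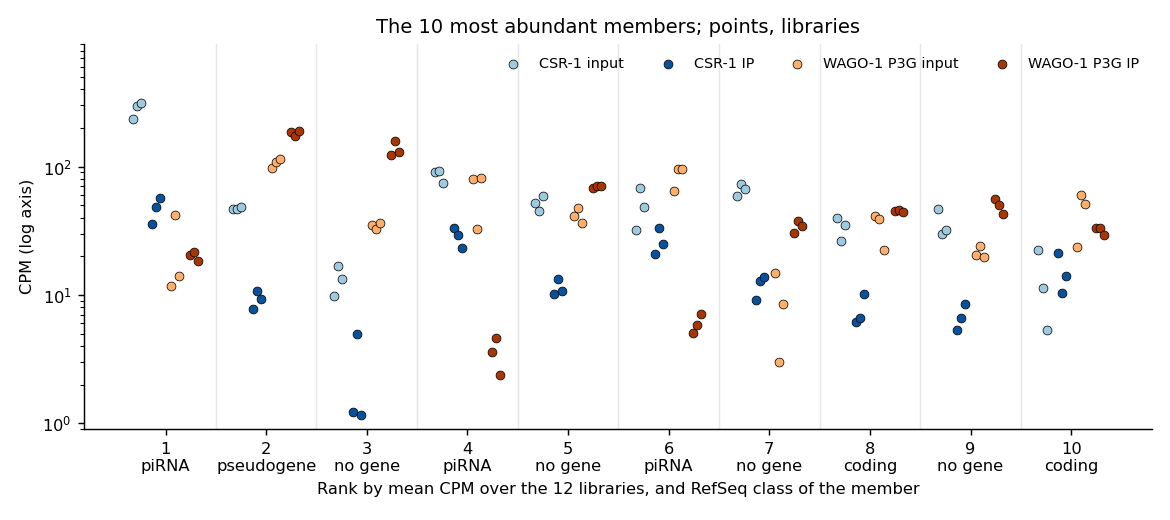
CPM on a log axis of the 10 members with the highest mean CPM, 1 point per library, coloured by group, with the class of RefSeq gene each overlaps. In the piRNA-overlapping members of rank 4 and 6 the WAGO-1 P3G IPs (2.40 to 7.08 CPM) were the lowest group, and in the pseudogene member of rank 2 the highest (172 to 190.5 CPM).

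Recovery with CSR-1 was low for members of both kinds. With edgeR's quasi-likelihood test at an adjusted p under 0.05, 41 of the 65 tested members were lower in the CSR-1 IP than in its input and 5 were higher. Of all 10822 tested features 33.6% were lower and 37.5% higher, and of the 100 background intervals 72 were lower and 4 higher. The median log2 IP over input was -1.67 over the members, -2.04 over the background intervals and -0.08 over all features. Of the 27 piRNA-overlapping members 15 were lower and 1 higher (median -1.38). Of the other 38, 26 were lower and 4 higher (median -1.82).

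Named below are the members with the largest and smallest log2 values among those called whose mean was at least 10 CPM over the 12 libraries and, outside the difference, whose groups did not overlap. The lowest was a piRNA-overlapping member at chrIV:5717456-5717543 (minus strand, 88 bp), which shares bases with 21ur-1012, 21ur-385, 21ur-3069 and 21ur-13960, of which at most 13 bases of any 1 gene lie inside. It had 51.9, 37.5 and 50.9 CPM in the CSR-1 inputs and 1.63, 3.74 and 1.75 in the CSR-1 IPs. It was thus 15.5-fold lower after IP (log2 -3.95 ± 0.38 SE, edgeR adjusted p = 1.04e-09). The next was the member at chrIV:16109412-16109904 (minus strand, 493 bp), with 4 bases of 21ur-2000. Its CPM was 27.2, 22.5 and 34.8 in the CSR-1 inputs and 1.43, 3.33 and 4.37 in the CSR-1 IPs (log2 -2.84 ± 0.41, edgeR adjusted p = 9.46e-07).

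The 3 others of the 5 lowest overlap no piRNA gene. That at chrIV:16638637-16639499 (minus strand, in no gene) had 32.1, 80.6 and 40.2 CPM in the inputs and 3.87, 7.07 and 7.29 in the IPs (log2 -2.77 ± 0.32, edgeR adjusted p = 3.59e-08). A second, at chrIV:16314470-16314850 (plus strand), lies in rac-3, annotated as a pseudogene of the Rac GTPase family, and had 61.8, 50.6 and 72.4 CPM against 4.89, 11.6 and 11.7 (log2 -2.35 ± 0.31, edgeR adjusted p = 2.14e-07). The fifth, at chrIV:14322508-14322984 (minus strand, in no gene), had 19.8, 18.8 and 16.1 CPM against 1.02, 3.74 and 4.08 (log2 -2.34 ± 0.49, edgeR adjusted p = 0.000160). In each of these 5 every IP library lay below every input library. No member called higher with CSR-1 reached a mean of 10 CPM over the 12 libraries. The only piRNA-overlapping one, at chrIV:15390132-15390490 (minus strand, 9 bases of 21ur-15061), had 2.47, 3.75 and 5.36 CPM in the CSR-1 inputs, from 5 reads in all, and 12.8, 13.3 and 12.8 in the CSR-1 IPs (log2 2.17 ± 0.54, edgeR adjusted p = 0.000924).

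Among the tested members, calls with WAGO-1 P3G differed by piRNA overlap. The 2 classes passed the filter through different groups, as given above, and the part of the filter in this contrast was not tested. Of the 65 tested, 26 were lower in the IP than in the input and 17 higher, beside 33.4% lower and 34.2% higher among all features. All but 1 of the 26 overlapped a piRNA gene, and none of the 17 did. Of the 27 piRNA-overlapping members 25 were lower, 0 higher and 2 not called, with a median log2 of -3.43, and 0 were higher at an unadjusted p under 0.05 or with DESeq2. Of the 38 other members 17 were higher, 1 lower and 20 not called (median 1.23). The 100 background intervals, none of which overlaps a piRNA gene, had 45 higher and 3 lower (median 1.10). A count of 25 lower piRNA-overlapping members was also found with library totals alone, with all reads as the library size and with median-of-ratios factors. With a filter of at least 10 counts in 3 libraries, which tests another set, 15 of 28 were lower and 0 higher (median log2 -1.90). Without a filter 34 of 140 were lower and 1 higher (median log2 0). Library totals alone lowered the higher calls of the other members to 9, and all reads as the library size raised them to 26. The same settings moved the share of higher among all called features from 50.6% to 28.8% and to 72.0%, and the median log2 of all features from 0.12 to -0.48 and to 0.87.

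**Figure D3:**
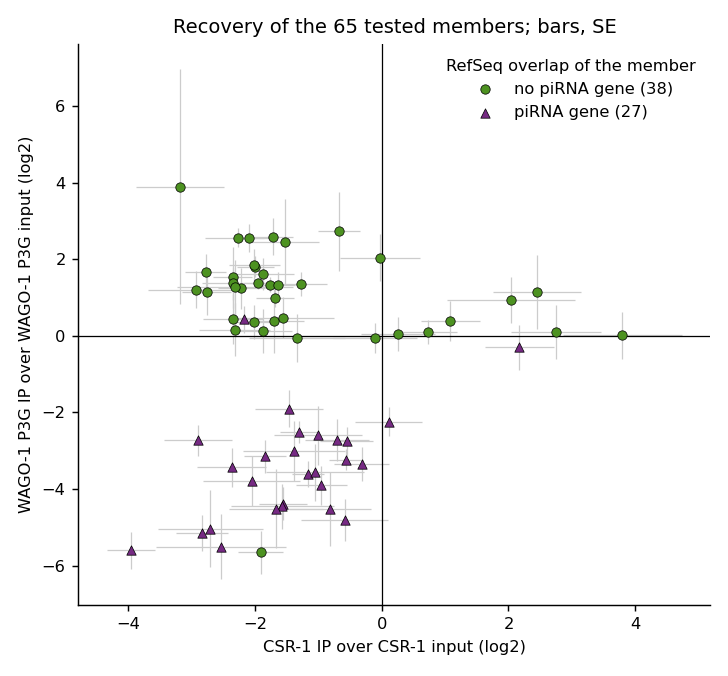
log2 IP over input with CSR-1 (x axis) and with WAGO-1 P3G (y axis) of the 65 tested members, with triangles for the 27 that overlap a piRNA gene, circles for the 38 that do not and bars for the SE of the fit. Triangles lie below 0 on the y axis but for 1 (log2 0.43), and circles lie near or above 0 but for the rac-3 interval (-5.66); the topmost circle had 0 counts in the WAGO-1 P3G inputs, so its height depends on the fit's prior count.

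Among the 5 largest falls with WAGO-1 P3G at a mean of at least 10 CPM, 4 were in piRNA-overlapping members. The interval of 21ur-1012 and its neighbours had 23.5, 47.9 and 33.8 CPM in the WAGO-1 P3G inputs and 0.720, 0.135 and 0.435 in the IPs, and was 48.5-fold lower (log2 -5.60 ± 0.49, edgeR adjusted p = 4.66e-10). The 21ur-2000 interval had 38.2, 23.9 and 33.8 CPM against 0.360, 0.810 and 0.544 (log2 -5.15 ± 0.48, edgeR adjusted p = 1.34e-09). These were also the lowest with CSR-1 among the called members at that mean whose groups did not overlap. Next came chrIV:14979908-14980037 (minus strand, 130 bp), which shares bases with 21ur-3260, 21ur-12760 and 21ur-7838, had 35.3, 35.9 and 53.5 CPM against 1.80, 1.76 and 0.435 (log2 -4.38 ± 0.42, edgeR adjusted p = 2.20e-09). The fourth, at chrIV:16203728-16203778 (plus strand, 51 bp), with 8 bases of 21ur-4922 and within the coding gene H25K10.1, had 35.3, 32.9 and 11.3 CPM against 1.56, 1.22 and 0.653 (log2 -3.90 ± 0.50, edgeR adjusted p = 3.07e-07). In all 4 the IPs lay at or below 1.80 CPM while no input was under 11.3 CPM. Of the abundant members given above, the 21ur-1216 interval was 12.2-fold lower (log2 -3.61 ± 0.34, edgeR adjusted p = 1.39e-09) and the 21ur-2464 interval 9.38-fold lower (log2 -3.23 ± 0.27, edgeR adjusted p = 2.62e-10).

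The fifth, and the lowest of all, was the 62 bp interval at chrIV:16312640-16312701 (plus strand) in the pseudogene rac-3, 3358 bases from the nearest piRNA gene. It had 20.6, 21 and 31.0 CPM in the WAGO-1 P3G inputs and 0.240, 0.405 and 0.218 in the IPs, 7 reads in all (log2 -5.66 ± 0.56, edgeR adjusted p = 3.64e-09). With CSR-1 it had 34.6, 26.3 and 26.8 CPM in the inputs and 3.26, 7.90 and 7.29 in the IPs (log2 -1.91 ± 0.35, edgeR adjusted p = 3.48e-05). It thus fell in both IPs, like 14 of the piRNA-overlapping members. The second tested interval in rac-3, at chrIV:16314470-16314850, was not called with WAGO-1 P3G: its 3 input reads and 140 IP reads gave a ratio of 1.93 (95% exact interval 0.646 to 9.46, counting error only). It was called higher without WAGO-1 P3G IP A (edgeR adjusted p = 0.0244) or IP C (edgeR adjusted p = 0.0483), with all reads as the library size (edgeR adjusted p = 0.00807) and without a filter (edgeR adjusted p = 0.0238).

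Of the piRNA-overlapping members 2 were not called with WAGO-1 P3G. One was the most abundant, the 21ur-8977 interval (log2 0.43 ± 0.35, edgeR adjusted p = 0.278), where input library B had 41.9 CPM and A and C 11.8 and 14.1. Without input B its log2 was 1.53 and it passed (edgeR adjusted p = 0.00303), the only piRNA-overlapping member called higher in any fit that left out a library. The second was the 21ur-15061 interval, with 11.8, 5.99 and 2.82 CPM in the inputs and 2.40, 3.92 and 4.57 in the IPs (log2 -0.30 ± 0.59, edgeR adjusted p = 0.660). It was also the piRNA-overlapping member that rose with CSR-1.

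The fall with WAGO-1 P3G was also measured where the overlap with the piRNA gene was slight. Of the 27 tested members 1 held a piRNA gene whole and 26 in part. In 22 the piRNA gene ran past the 3' end of the interval only, in 3 past the 5' end only and in 2 past both ends. The largest overlap with any 1 gene had a median of 11 bases and a range of 1 to 21. The 2 members with a single shared base, which touch 21ur-10221 and 21ur-5807, were both lower (log2 -2.72 and -2.60). The one that held a gene whole, at chrIV:6994194-6994429, had a log2 of -3.56. All of these passed the filter, 13 of the 27 through inputs only. Whether the fall varies with the length of the overlap was not tested.

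**Figure D4:**
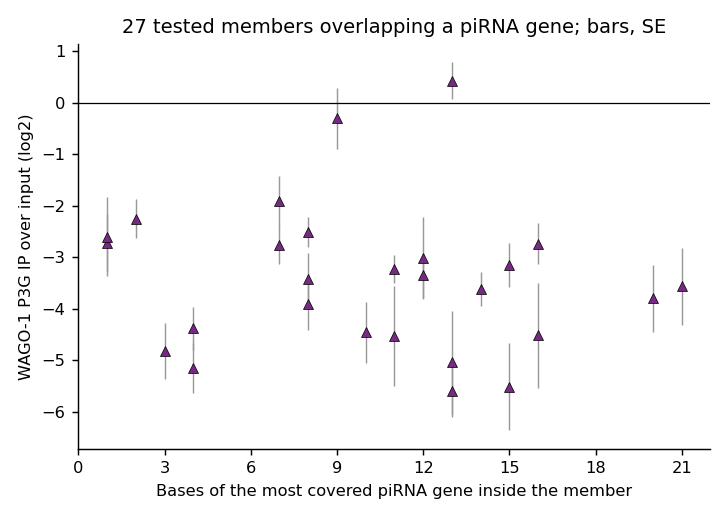
log2 WAGO-1 P3G IP over input (y axis, bars for the SE) against the bases of the most covered piRNA gene that lie inside the member (x axis), for the 27 tested members overlapping a piRNA gene. Members with 1 shared base (-2.72 and -2.60) and with 21 (-3.56) lie below 0, and only the 21ur-8977 member, with 13 shared bases, lies above it (0.43).

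Nearness to a piRNA gene without overlap went with no such fall. The distance of 150 bases used here was chosen after these values were seen, so the counts are a description. Of the 38 tested members with no piRNA gene, 7 lay under 150 bases from the nearest one, and with WAGO-1 P3G 6 were higher and 0 lower. Among the 31 farther ones 11 were higher and 1 lower. Of all features 34.2% were higher and 33.4% lower, and of the 100 background intervals 45 were higher and 3 lower. Summed over all 542 such near members, tested or not, WAGO-1 P3G inputs had 200.0, 153 and 206 CPM and the IPs 348, 385 and 362 CPM. The IPs thus lay above the inputs without overlap, at a ratio of means of 1.96, beside 1.27 for the 1550 members at 150 bases or more. The 7 tested members held most of the CPM in the IPs: the 535 others summed to 124, 92.8 and 124 CPM in the inputs and 125, 126 and 130 in the IPs, a ratio of 1.12, beside 1.18 for the untested members at 150 bases or more.

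Of the 5 largest rises with WAGO-1 P3G at a mean of at least 10 CPM, all were in intervals of no RefSeq gene. One, at chrIV:16706164-16706701 (minus strand, 105 bases from a piRNA gene) had 5.88, 0 and 11.3 CPM in the inputs and 23.8, 20.5 and 25.8 in the IPs (log2 2.59 ± 0.48, edgeR adjusted p = 4.60e-05). The member at chrIV:17031209-17031322 was 5.91-fold higher (log2 2.56 ± 0.24, edgeR adjusted p = 1.81e-09). That at chrIV:13802472-13803429 (plus strand, 958 bp), 21 bases from a piRNA gene, had 14.7, 2.99 and 8.45 CPM against 30.4, 37.8 and 34.2 (log2 2.55 ± 0.37, edgeR adjusted p = 1.56e-06). In these 3 no IP library was as low as any input. The interval at chrIV:16440842-16441378 (minus strand) had 8.83, 5.99 and 5.63 CPM against 17.2, 16.5 and 15.3 (log2 1.85 ± 0.42, edgeR adjusted p = 0.000473). The fifth, at chrIV:6084170-6084482 (plus strand), rested on 1 input read against 111 in the IPs, a ratio of 4.58 (95% exact interval 0.806 to 183, counting error only). Its edgeR adjusted p of 0.0225 rose to 0.0992 without WAGO-1 P3G input A and to 0.107 without input C.

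Setting the 2 IPs side by side, 15 of the 65 members were lower with CSR-1 and higher with WAGO-1 P3G, and none of these overlapped a piRNA gene. They were 39.5% of the 38 such members, beside 36 of the 100 background intervals, 45.0% of all 1286 tested intervals and 20.2% of all features, a share near that of the other intervals and no result about the members. A further 15 were lower with both, 14 of them piRNA-overlapping (51.9% of 27), beside 2 background intervals, 3.89% of tested intervals and 6.01% of features. Lower with WAGO-1 P3G and not called with CSR-1 were 11 members, all piRNA-overlapping (40.7% of 27), beside 1 background interval, 1.79% of tested intervals and 8.43% of features. The filter bears on both of these shares of the 27. Of them, 13 reached the filter CPM in input groups only, 8 in both input groups, which favours falls in the IPs. The part of the filter in these shares was not tested. No member was higher with both, beside 1 background interval, 0.156% of tested intervals and 4.48% of features. Called higher with CSR-1 were 5 (7.69% of 65), none of which was called with WAGO-1 P3G. The same pair of calls was found in 3 background intervals, 2.72% of tested intervals and 14.1% of features.

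The inputs of the strains, with no IP, gave fewer calls, over all features as over the members. Inputs held the fewest counted reads, which limits what this comparison can call. Of the 65 tested members 8 were higher in the WAGO-1 P3G inputs and 15 lower, beside 19.6% higher and 18.8% lower among all features. Among the 27 piRNA-overlapping members 4 were higher and 1 lower (median log2 0.51), and among the other 38 4 were higher and 14 lower (median -0.55). Among the background intervals 3 were higher and 48 lower (median -1.21). Of the 27, 5 reached the filter CPM in the WAGO-1 P3G inputs alone, and of the other 38, 9 in the CSR-1 inputs alone. The filter thus favoured opposite directions in the classes, and its part in the counts was not tested. With all reads as the library size 1 piRNA-overlapping member was higher and 4 lower, and their median turned to -0.08. The same setting moved the share of higher among all called features from 51.0% to 18.3%. The count of 8 fell to 3 without WAGO-1 P3G input B and to 5 without input C. In whole worms fewer germline cells and less small RNA per cell cannot be told apart.

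At a mean of at least 10 CPM, the lower members of the WAGO-1 P3G inputs were led by intervals with a handful of reads there. The interval at chrIV:6084170-6084482 had 34.6, 30.0 and 16.1 CPM in the CSR-1 inputs and 0, 2.99 and 0 in the WAGO-1 P3G inputs, a ratio of 28.3 (95% exact interval 4.76 to 1147, counting error only). The rac-3 interval at chrIV:16314470-16314850 had 61.8, 50.6 and 72.4 CPM against 5.88, 0 and 2.82, 79 reads against 3 and a ratio of 20.7 (6.82 to 102). The 21ur-8977 interval had the deepest counts of this set, 370 reads against 23, and was 13.3-fold lower (log2 -3.74 ± 0.29, edgeR adjusted p = 1.30e-10). It is the single piRNA-overlapping member that was lower. The gene-free intervals at chrIV:13802472-13803429 (log2 -3.02 ± 0.39, edgeR adjusted p = 9.42e-07) and chrIV:16706164-16706701 (log2 -2.84 ± 0.53, edgeR adjusted p = 0.000139) completed the 5.

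The higher members of the WAGO-1 P3G inputs changed by less. The 43 bp interval at chrIV:6189598-6189640 (minus strand), with 2 bases of 21ur-9379, had 4.94, 9.38 and 10.7 CPM in the CSR-1 inputs and 35.3, 32.9 and 36.6 in the WAGO-1 P3G inputs (log2 1.96 ± 0.52, edgeR adjusted p = 0.00431). Its call held without any 1 library. The interval at chrIV:16808697-16808928 (minus strand, in no gene) had 9.88, 5.63 and 0 CPM against 26.5, 23.9 and 11.3 (log2 1.84 ± 0.65, edgeR adjusted p = 0.0266). That of Y45F10C.1 at chrIV:13658086-13658444 had 22.2, 11.3 and 5.36 CPM against 23.5, 59.9 and 50.7 (log2 1.69 ± 0.50, edgeR adjusted p = 0.00852). The interval at chrIV:17031209-17031322 (log2 1.26 ± 0.44, edgeR adjusted p = 0.0246) and that at chrIV:14100296-14100350 with 7 bases of 21ur-1051 (log2 1.11 ± 0.44, edgeR adjusted p = 0.0468) came next. The Y45F10C.1 call was lost without WAGO-1 P3G input B (log2 1.39, edgeR adjusted p = 0.0687). Leaving out a single library raised the edgeR adjusted p to as much as 0.106 at chrIV:16808697-16808928, 0.0901 at chrIV:17031209-17031322 and 0.188 at chrIV:14100296-14100350. Over all 21 alternatives, these 3 calls were lost in 5, 6 and 16, in that order. With all reads as the library size the edgeR adjusted p at chrIV:14100296-14100350 was 0.343.

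The difference of the enrichments, WAGO-1 P3G minus CSR-1 on the log2 IP over input scale, tests each member for unlike recovery in the 2 strains, each against its own input. Of the 65 members 27 were higher with WAGO-1 P3G and 22 lower, beside 33.9% higher and 40.0% lower among all features. Among the piRNA-overlapping members 19 of 27 were lower and 1 higher (median -2.33). Among the others 26 of 38 were higher and 3 lower (median 2.88), and among the background intervals 75 higher and 3 lower (median 3.04). The classes passed the filter through different groups, which bears on these counts. Of the 27, 5 reached the filter CPM in the WAGO-1 P3G inputs alone and 1 in the CSR-1 IPs alone. Of the other 38, 9 did so in the CSR-1 inputs alone, 4 in the WAGO-1 P3G IPs alone and 3 in the CSR-1 IPs alone. The part of the filter in this contrast was not tested. The single piRNA-overlapping member on the higher side was again the 21ur-8977 interval (log2 2.61 ± 0.36, edgeR adjusted p = 6.53e-07). The 3 lower members with no piRNA gene were the rac-3 interval at chrIV:16312640-16312701 and, named after their values were seen, intervals in the coding genes ifas-3 and Y64G10A.10. These last rested on 1 and 2 CSR-1 input reads, against 91 and 85 in the CSR-1 IPs, ratios of 11.1 (95% exact interval 1.94 to 443) and 5.19 (1.39 to 43.5), counting error only.

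The 5 largest positive differences at a mean of at least 10 CPM were all in members with no piRNA gene. That at chrIV:17031209-17031322 was 4.84 ± 0.62 (edgeR adjusted p = 1.80e-07) and that at chrIV:13802472-13803429 was 4.65 ± 0.42 (edgeR adjusted p = 4.20e-10). The intervals at chrIV:16638637-16639499 (4.45 ± 0.52, edgeR adjusted p = 3.94e-08), chrIV:16706164-16706701 (4.31 ± 0.56, edgeR adjusted p = 2.15e-07) and chrIV:16314470-16314850 (3.88 ± 0.73, edgeR adjusted p = 4.13e-05) followed. Each combined a fall with CSR-1 and a positive WAGO-1 P3G ratio, and in the last that ratio was not called. The 5 smallest at that mean were the rac-3 interval at chrIV:16312640-16312701 (-3.75 ± 0.63, edgeR adjusted p = 9.95e-06) and 4 piRNA-overlapping members. The 41 bp interval at chrIV:16640196-16640236 (plus strand), between 21ur-4528 and 21ur-482 and sharing bases with both, had 12.4, 18.8 and 13.4 CPM in the CSR-1 inputs and 6.32, 9.56 and 12.2 in the CSR-1 IPs. It had 20.6, 35.9 and 33.8 CPM in the WAGO-1 P3G inputs and 0.961, 2.16 and 2.61 in the WAGO-1 P3G IPs, a difference of -3.03 ± 0.57 (edgeR adjusted p = 4.36e-05). The 21ur-4922 interval (-2.95 ± 0.60, edgeR adjusted p = 0.000107), the 21ur-3260 interval at chrIV:14979908-14980037 (-2.82 ± 0.53, edgeR adjusted p = 3.87e-05) and the 21ur-2464 interval (-2.67 ± 0.36, edgeR adjusted p = 3.98e-07) completed them.

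**Figure D5:**
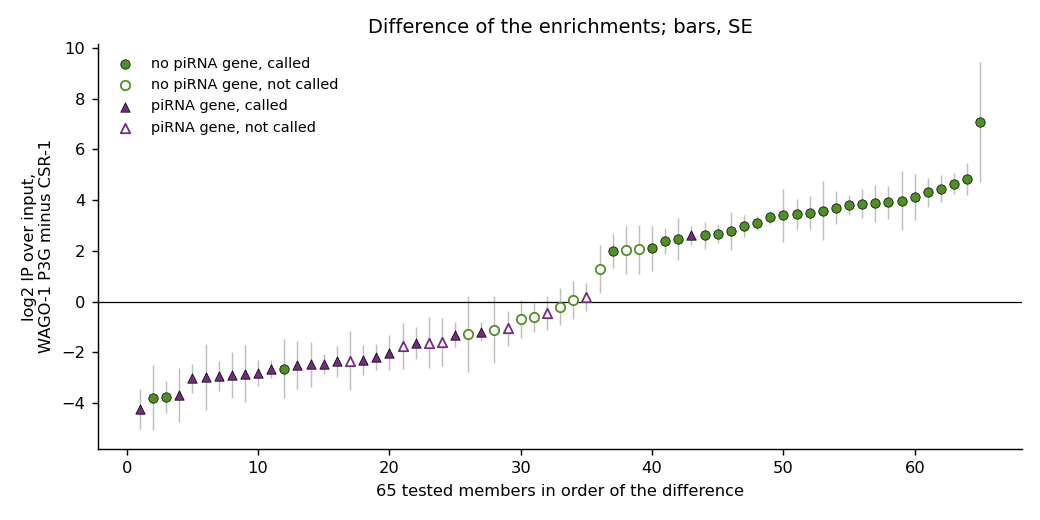
Difference of log2 IP over input, WAGO-1 P3G minus CSR-1, of the 65 tested members in rising order, with bars for the SE, triangles for piRNA-overlapping members and filled symbols for calls at an adjusted p under 0.05. Of the 22 filled symbols below 0, 19 are triangles, and of the 27 above 0, 1 is; the highest point, with 0 counts in the WAGO-1 P3G inputs, is no measure of size.

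The difference by piRNA overlap among the tested members was present in both windows. The same filter chose the tested members of both windows, so this is a description and no separate test of the difference. In the left window 3 of 3 tested piRNA-overlapping members were lower with WAGO-1 P3G (median log2 -3.56), and in the right window 22 of 24 (median -3.39). Of the others, 6 of 10 were higher in the left window and 11 of 28 in the right one. In the same comparison 33.4% of all features were lower and 34.2% higher, and 45 of the 100 background intervals were higher and 3 lower. Whether the windows differ was not tested.

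The limits of the windows fell among intervals with few reads. The members that start nearest inside them, at 4500001, 6994194, 13500398 and 17172727, had 0, 52, 0 and 6 reads over all libraries, and the intervals nearest outside, at 4499890, 7008395, 13499838 and 17205760, had 0, 4, 1 and 0. At the span limit the longest member, of 999 bp, had 20 reads and the shortest interval left out, of 1017 bp at chrIV:15343022-15344038, had 6484. A list of 37 genes of the piRNA pathway, such as prg-1, gave no values: 34 were found in the RefSeq table and a member overlapped 0 of them.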

How the data were processed

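The deposited table holds raw counts of reads per feature in 12 libraries, for 20134 gene identifiers, 55259 intervals and 5 summary entries. Per the submitters' processing notes, cutadapt 2.3, Bowtie 1.2.3, SAMtools 1.9 and HTSeq 0.11.2 were used with build ce11. How HTSeq handled strand and multiply aligned reads, and which annotation defined the intervals, is not given in the sources used here, so reads of near-identical copies and of the 2 strands may be mixed. Groups were set by the title, the sample name in the description and the antibody field, which matched each other; for some samples the opening of the description contradicts them.

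The test was edgeR 4.0.16's quasi-likelihood F test (R 4.3.3) on 4 group means with 8 residual degrees of freedom. Library sizes were all counted reads scaled by TMM, and filterByExpr used the groups. Calls needed an adjusted p under 0.05 (Benjamini-Hochberg, 10822 features). The SE is the size of the log2 value over the root of the F statistic, an approximation. CPM uses counted reads without TMM factors, so a fitted fold can differ from a ratio of CPM. RefSeq genes (WBcel235) sharing any base with an interval, on either strand, were assigned to it. The fit was run on simulated counts with a single fixed spread and equal group means outside a set of changed features. These data differ from that in both respects, so the run was a check of the code only. Ratios of counts of 3 or fewer reads carry an exact 95% interval for counting error.

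The members and lists were chosen with earlier results of these data known. Named members were, per comparison, the 5 largest and 5 smallest log2 among those called with a mean of at least 10 CPM and groups that did not overlap (not asked for the difference), with the 10 most abundant, those at the limits and piRNA-overlapping members called higher in an IP. Alternatives were other library scalings and filters, DESeq2 1.42.0, a replicate block, only the groups compared, and leaving out each library. No sequence is shown because no genome was used here.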

Additional observations from a re-analysis of the deposited data

Results flagged for a closer look

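Of the 65 tested members 49 had an IP over input that differed between the strains, by edgeR's test of the difference at an adjusted p under 0.05. That is 75.4% of them, near the 73.9% of all 10822 features and the 78 of 100 background intervals called in the same test, and so no result about the members. The largest differences among members with a mean of at least 10 CPM, on the log2 scale as WAGO-1 P3G minus CSR-1, were at chrIV:17031209-17031322 (4.84), chrIV:13802472-13803429 (4.65), chrIV:16638637-16639499 (4.45), chrIV:16706164-16706701 (4.31) and chrIV:16314470-16314850 (3.88). In the opposite direction they were at chrIV:16312640-16312701 (-3.75), chrIV:16640196-16640236 (-3.03), chrIV:16203728-16203778 (-2.95), chrIV:14979908-14980037 (-2.82) and chrIV:17033431-17033736 (-2.67). All 5 positive members overlap no piRNA gene, and 4 of the 5 negative ones overlap one, the exception being chrIV:16312640-16312701 in rac-3.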

How the results depend on the processing

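Without a filter on low counts, 1288 members were fitted, and 18 were higher with CSR-1 (3 piRNA-overlapping, 15 others) and 40 others lower. With WAGO-1 P3G 40 were then higher (1 and 39) and 5 others lower, 2 piRNA-overlapping members were higher in the inputs, and in the difference 54 were higher (53 others) and 5 others lower. Of the 140 piRNA-overlapping members fitted in this way, 34 were lower with WAGO-1 P3G, 12 with CSR-1 and 15 in the difference. Their median log2 with WAGO-1 P3G was 0, beside 1.09 over all features fitted. With at least 10 counts in 3 libraries, 14 were higher with CSR-1 (3 and 11) and 9 piRNA-overlapping lower, 32 (all others) were higher and 16 lower (15 piRNA-overlapping) with WAGO-1 P3G, 1 piRNA-overlapping member was higher in the inputs and 46 (45 others) were higher in the difference. With a minimum mean of 5 CPM, chosen after seeing the data, 2 were higher with CSR-1 (1 other) and 14 (12 piRNA-overlapping) lower in the difference. These settings test other sets of members.

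With library totals alone, 9 members (9 others) were higher with WAGO-1 P3G. With all reads as the library size they were 27 (26 others, 1 piRNA-overlapping), and in the inputs 1 was higher (1 piRNA-overlapping, 0 others) and 4 piRNA-overlapping were lower. Leaving out single libraries, the piRNA-overlapping members higher with WAGO-1 P3G numbered 0 to 1, those higher in the inputs 2 to 5, the others higher there 1 to 4, and all members higher there 3 to 9. The share of reads on all members, 0.213, 0.0677, 0.166 and 0.137% (input and IP of CSR-1, then of WAGO-1 P3G), was 0.0913, 0.0509, 0.0444 and 0.0931% of all reads, and 0.129, 0.0440, 0.0889 and 0.126% for members with no piRNA gene. The WAGO-1 P3G share on all members, IP over input, thus turned from 0.823 to 2.10 with all reads as the total, and the median log2 of piRNA-overlapping members in the inputs from 0.51 to -0.08.

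Deviations from group means correlated at 0.31, 0.20 and 0.04 between CSR-1 input and IP of letter A, B and C. Between unlike letters of that strain they ran from -0.26 to 0.11. Letters A and B, but not C, thus went together more than unlike letters with CSR-1. For WAGO-1 P3G the values were 0.0211 or lower within a letter and -0.034 to 0.033 between letters, which showed no pairing. With the replicate block, 6 members were higher and 42 lower with CSR-1, 18 and 26 with WAGO-1 P3G, 9 and 14 in the inputs, and 28 and 21 in the difference. The 13 tested members that overlap another member overlap untested ones only. Counting overlaps once therefore could not change a count of tested members. G+C content, repeat copies and promoter motifs were not run, since no genome was used here. Depth is a limit: 2189 members were untested, and 1 read in an input is worth more CPM than many members held.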
